A study of Danio rerio with 54 samples.

Results

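Retinas taken 10 days after the start of a damaging light treatment (10 dpl) were compared with retinas taken straight from darkness before any light treatment (0 h). The comparison used 12 of the 54 libraries of the series, the 6 labelled 10 dpl and the 6 labelled as dark-adapted 0 h controls, and each library came from the mRNA of a single whole retina. All fish were adult albino zebrafish aged 6 to 9 months. Before light treatment the fish spent 5 days in the dark, and the 0 h retinas were harvested at the end of that time. The 10 dpl fish had then been given 30 min of light at about 100000 lux and light at about 10000 lux up to 72 h, after which they lived in the ordinary cycle of 14 h light and 10 h dark. Replicates 1 to 3 of each group came from experiment 1 and replicates 4 to 6 from experiment 2. A group of 6 naïve retinas, which saw neither prolonged darkness nor the light treatment, and the groups at 72 hpl (72 h after light onset), 5 dpl, 14 dpl and 28 dpl are cited where they place a 10 dpl value. The data labels give a single age, within the 6 to 9 months, for the naïve fish only. The authors describe these controls as age-matched.

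Intense light kills rods and cones of the albino zebrafish retina. Müller glia, the radial glia that span the retina, then re-enter the cell cycle and divide to give neuronal progenitors, which migrate to the photoreceptor layer and differentiate into new rods and cones. Microglia, the resident phagocytes, clear the dying cells. Photoreceptors turn light into a change in membrane voltage through a cascade of opsin, transducin, phosphodiesterase and cyclic nucleotide-gated channels, and the spent chromophore is renewed by the visual cycle in the pigment epithelium and Müller glia.

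Reads of 3′ mRNA-seq mark the 3′ end of a transcript, so that 1 transcript gives about 1 read whatever its length. The count totals were 1111503 to 1906743 per 0 h retina (median 1653662) and 1695334 to 2526781 per 10 dpl retina (median 1928523). Defining markers of rods, cones, Müller glia, bipolar, amacrine, ganglion and horizontal cells and of microglia had reads in all 12 retinas, except the microglial receptor gene p2ry12, which had no read in 3 retinas and at most 5 in any. A pseudo-count is the read count that the authors adjusted to a common library size, and it is the scale of every per-retina level below. Among the 0 h retinas, replicate 5 had the highest summed level of the 9 visual opsins (112800 pseudo-counts against a group median of 72350), and replicate 2 had a summed level of lens genes of 2522 against a group median of 321.4. Over all genes the pseudo-counts of replicate 5 summed to 2258728, against 1722570 to 1980067 in the other 0 h retinas. Where leaving out replicate 5 moved the calls of a list described singly by over 1.5 times in a direction, the count without it is given. Because the retinas were processed whole, fewer cells of a type and less RNA per cell cannot be told apart. The 0 h fish came from darkness and the 10 dpl fish from a light cycle, so that light history and time after injury cannot be told apart in this contrast.

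At 10 dpl the retina had higher levels than at 0 h of nearly all ribosomal protein genes, most respiratory chain genes and some pigment epithelium, visual cycle, microglial and progenitor genes, and lower levels of some rod and cone phototransduction and ribbon synapse genes. Rhodopsin did not differ by the test, whereas the red opsin paralog opn1lw2 was 7.84-fold higher. Of 11536 genes tested with edgeR's quasi-likelihood test, 781 (6.77%) were higher and 488 (4.23%) were lower at 10 dpl at an adjusted p under 0.05, 11.0% in all. The median log2 fold change over all tested genes was −0.04. A change beyond 2-fold was found for 381 of the called genes, 237 of them higher and 144 lower. The retinas of the groups did not overlap for 424 genes that were higher at 10 dpl (3.68% of 11525) and for 167 that were lower (1.45%). Genes named below for the size of their change were taken only from called genes without overlap. Their separation is thus a condition of naming and not a further result. Limma on the pseudo-counts called 998 genes higher and 395 lower, and the fit over all 48 libraries 923 higher and 373 lower, both with a larger share in the higher direction, whereas scaling by total counts gave a more even split of 691 higher and 605 lower. Without 0 h replicate 5 the counts were 1012 higher (8.85% of 11431) and 815 lower (7.13%).

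**Figure D1:**
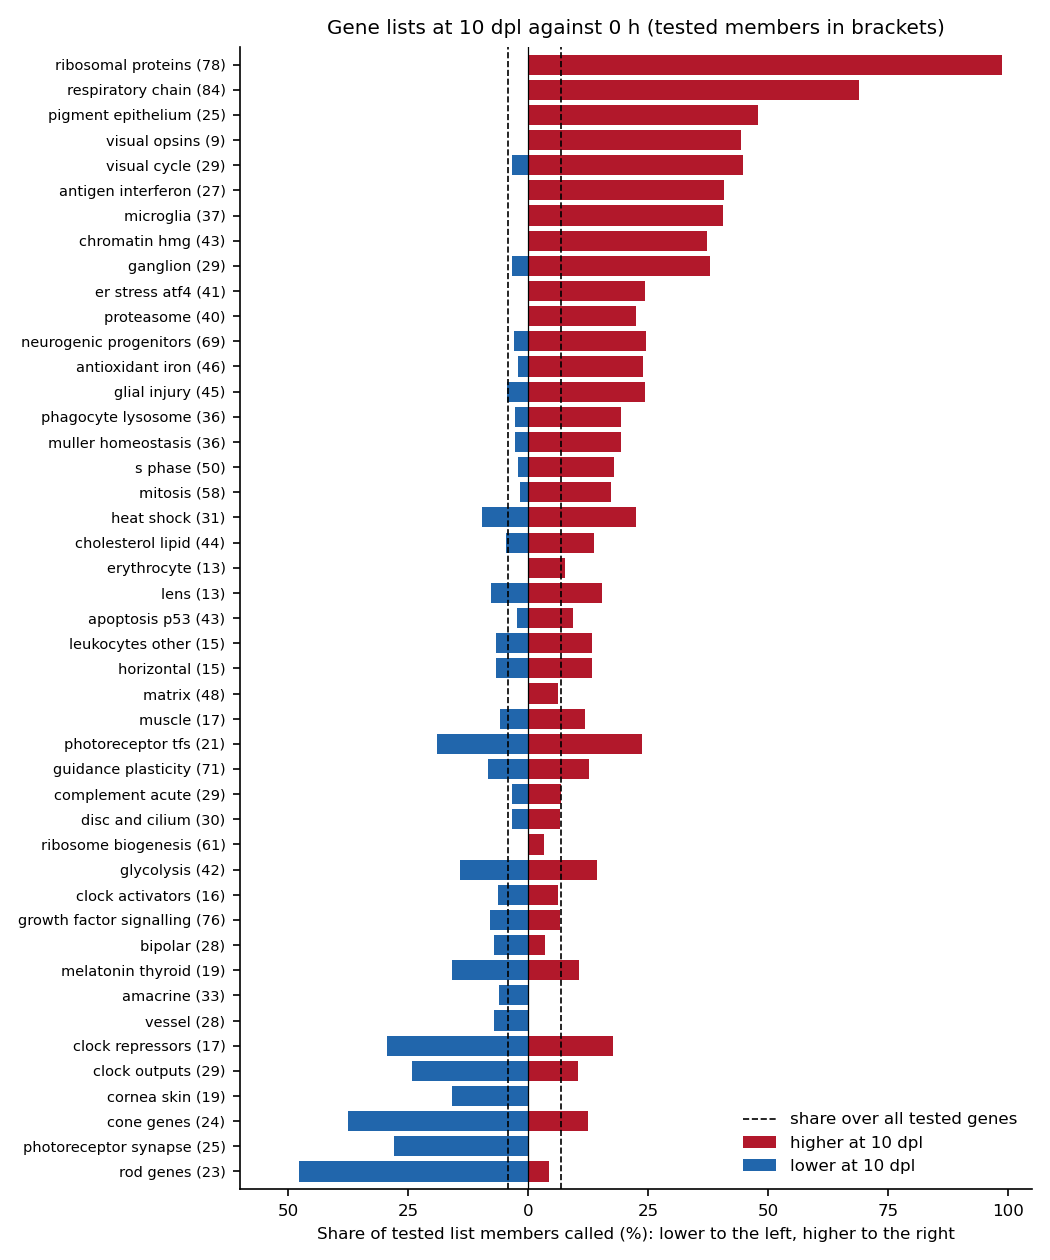
Share of the tested members of each of 45 gene lists that were called higher (red, to the right) or lower (blue, to the left) at 10 dpl than at 0 h, in percent, with dashed lines at the shares over all tested genes, 6.77% and 4.23%. Ribosomal proteins (98.7% higher) and the respiratory chain (69.0% higher) stand at the top, and rod genes (47.8% lower) and cone genes (37.5% lower) are among those with the largest shares to the left.

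Visual opsins are the photopigment proteins of the outer segments: rho in rods, opn1sw1 in ultraviolet cones, opn1sw2 in blue cones, and opn1mw1 to opn1mw4 and opn1lw1 to opn1lw2, tandem paralogs, in green and red cones. Of the 9 genes, 4 were called higher and none lower at 10 dpl, with a median log2 fold change of 0.09. From here on, the values of a group are its lowest, median and highest retina.

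The level of rho was 39230, 50410 and 72080 at 0 h and 48380, 52850 and 57420 at 10 dpl. The 10 dpl range lay inside the 0 h range, and the log2 fold change was −0.03 ± 0.09 (SE, adjusted p = 0.868 with edgeR's quasi-likelihood test). Ultraviolet opsin opn1sw1 stood at 6197, 8843 and 17490 at 0 h and 14000, 17570 and 19900 at 10 dpl. Only 0 h replicate 5 reached the 10 dpl range, and the gene was higher at 10 dpl by 0.78 ± 0.15 on the log2 scale (adjusted p = 0.00157). For blue opsin opn1sw2 the levels were 3475, 4324 and 7384 at 0 h and 4451, 4889 and 5754 at 10 dpl, with overlapping groups and a log2 fold change of 0.05 ± 0.11 (adjusted p = 0.83).

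The balance of the red paralogs differed between the groups. Levels of opn1lw2 were 202, 339.5 and 713 at 0 h and 2259, 2954 and 3970 at 10 dpl. The groups were separated by a wide gap, and the log2 fold change was 2.97 ± 0.19 (adjusted p = 2.91e-09). Its partner opn1lw1 had 3448, 4401 and 6715 at 0 h and 2999, 4144 and 5159 at 10 dpl, overlapping groups, and a log2 fold change of −0.23 ± 0.14 that did not pass the test (adjusted p = 0.325). As a share of the pseudo-counts of both red opsins, opn1lw2 made up 42.4% ± 8.28 (SD, n = 6) at 10 dpl and 7.16% ± 1.71 at 0 h, a difference of 35.3 percentage points (p = 0.005, adjusted p = 0.01 over 6 shares, two-sided exact permutation test within experiments, whose smallest possible p is 0.005). In single retinas the share was 31.6%, 35.7% and 38.1% in experiment 1 and 51.1%, 49.6% and 48.4% in experiment 2 at 10 dpl, and no 0 h retina exceeded 9.60%. The share in the naïve retinas was 10.6% ± 9.71 (SD, n = 6).

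Among green paralogs, opn1mw4 and opn1mw1 were called higher. Levels of opn1mw4 were 534, 872 and 1109 at 0 h and 1664, 2209 and 2332 at 10 dpl, with no overlap and a log2 fold change of 1.18 ± 0.15 (adjusted p = 1.67e-05). Weakly expressed opn1mw1 had 3.84, 19.97 and 195 at 0 h and 219.5, 310.5 and 690.3 at 10 dpl, also with no overlap (log2 fold change 2.31 ± 0.56, adjusted p = 0.0093), though its call was lost with DESeq2 (adjusted p = 0.0572). For opn1mw2 and opn1mw3 the groups overlapped, with log2 fold changes of −0.08 ± 0.24 and 0.09 ± 0.22 (adjusted p = 0.869 and 0.849). Of the green opsin pseudo-counts, opn1mw4 took 30.2% ± 4.60 at 10 dpl and 17.8% ± 6.54 at 0 h (SD, n = 6, adjusted p = 0.01, exact permutation test), and opn1mw1 took 5.09% ± 1.63 and 1.27% ± 1.80 (adjusted p = 0.03). The shares of opn1mw2 (38.4% at 10 dpl and 49.2% at 0 h, exact permutation p = 0.155) and opn1mw3 (26.3% and 31.8%, exact permutation p = 0.335) did not differ by the test. The paralogs are similar in sequence, and reads shared between them could be assigned to either or dropped, so that the split between neighbours is uncertain.

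**Figure D2:**
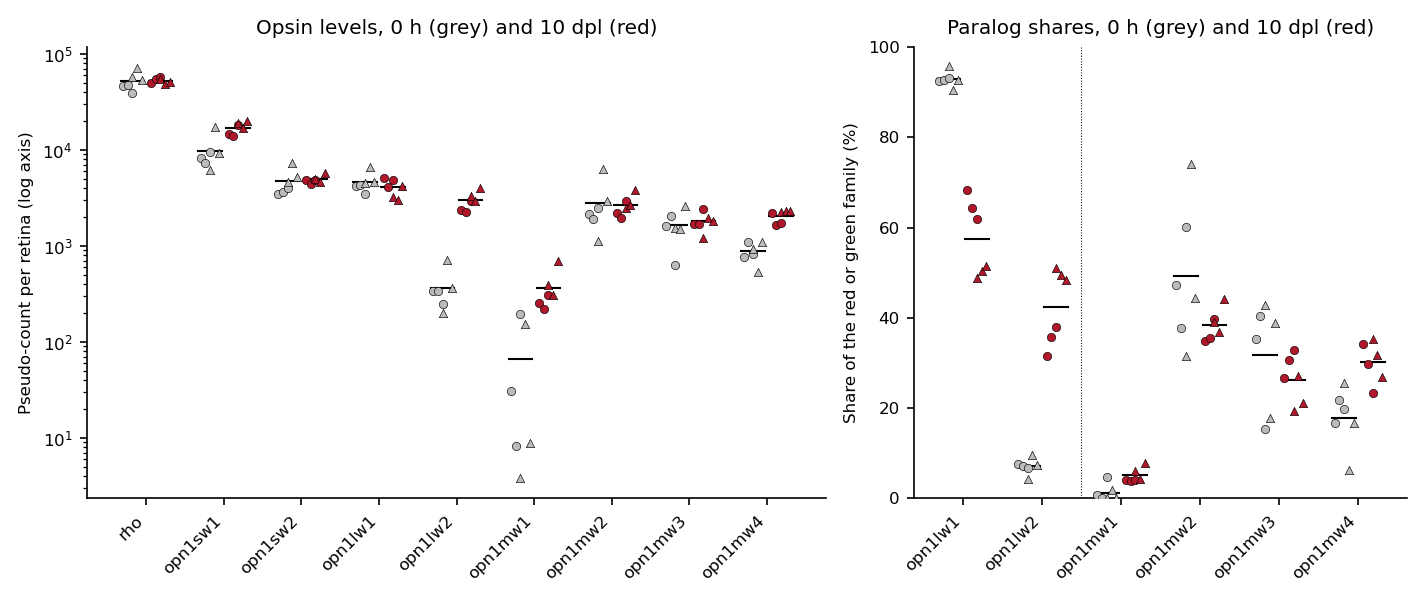
Left, pseudo-counts of the 9 visual opsins in single 0 h (grey) and 10 dpl (red) retinas on a log axis, and right, the share of each paralog in the red or green opsin pseudo-counts in percent (circles experiment 1, triangles experiment 2, bars the mean of 6 retinas). The share of opn1lw2 is 31.6% to 51.1% in the 10 dpl retinas and at most 9.60% in the 0 h retinas.

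Many rod and cone phototransduction genes were lower at 10 dpl. Of 23 tested rod genes, 11 were lower and 1 was higher, with a median log2 fold change of −0.38, and of 24 tested cone genes, 9 were lower and 3 were higher, with a median of −0.30. Over all tested genes 4.23% were lower and 6.77% higher. Leaving out 0 h replicate 5 left 11 lower and 1 higher rod gene, and 9 lower and 4 higher cone genes. The summed level of the rod list was 72120 to 108600 pseudo-counts at 0 h and 59940 to 71690 at 10 dpl. That of the cone list overlapped between groups and was not lower at 10 dpl, with 90620 to 149900 (median 101700) at 0 h and 94950 to 132200 (median 110500) at 10 dpl.

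In rods, pdcb encodes a phosducin, a regulator that binds transducin beta-gamma, and had 7146, 7698 and 9875 at 0 h and 2417, 2690 and 2973 at 10 dpl. The groups were far apart, with a log2 fold change of −1.62 ± 0.08 (adjusted p = 1.55e-10). Its paralog pdca had 2063, 2352 and 2890 at 0 h and 1175, 1376 and 1662 at 10 dpl, again without overlap (log2 fold change −0.87 ± 0.09, adjusted p = 7.50e-07). The inhibitory phosphodiesterase subunit gene pde6g stood at 18380, 22970 and 30020 at 0 h and 11480, 13920 and 15470 at 10 dpl, and rod transducin alpha, gnat1, at 5496, 6431 and 7360 at 0 h and 3338, 4470 and 5224 at 10 dpl. Both were lower in every 10 dpl retina than in any 0 h retina, with log2 fold changes of −0.85 ± 0.09 and −0.61 ± 0.09 (adjusted p = 7.86e-07 and 7.02e-05). Catalytic subunit gene pde6a and rgs9a, a regulator that speeds transducin shut-off, were lower by smaller amounts (−0.54 ± 0.09 and −0.55 ± 0.10 on the log2 scale).

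The exception among rod genes was sagb, a rod arrestin that ends rhodopsin signalling. Its levels were 614, 797 and 1908 at 0 h and 1975, 2651 and 3664 at 10 dpl. Every 10 dpl retina exceeded every 0 h retina, among which replicate 5 was highest, and the log2 fold change was 1.504 ± 0.15 (adjusted p = 5.00e-07). Transducin beta genes gnb1a and gnb1b and the gamma gene gngt1 had log2 fold changes of 0.14 ± 0.11, −0.17 ± 0.09 and 0.04 ± 0.09, none past the test (adjusted p = 0.447, 0.252 and 0.846).

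In cones, the catalytic phosphodiesterase gene pde6c had 11190, 12970 and 14780 at 0 h and 5499, 6116 and 7529 at 10 dpl, and the guanylate cyclase gene gc3 had 1141, 1348 and 1695 at 0 h and 523, 613 and 707 at 10 dpl. Neither overlapped between groups (log2 fold changes −1.097 ± 0.08 and −1.25 ± 0.10, adjusted p = 9.54e-09 and 8.42e-08). The exchanger gene slc24a2, which exports calcium from the outer segment, had 1392, 1476 and 1864 at 0 h and 693, 809.6 and 1047 at 10 dpl (log2 fold change −0.93 ± 0.10). Cone transducin alpha, gnat2, was lower to a lesser extent, with 11070, 11970 and 13230 at 0 h and 7103, 8833 and 9562 at 10 dpl (log2 fold change −0.58 ± 0.08, adjusted p = 2.37e-05). The potassium channel gene kcnv2b, the opsin kinase gene grk7a and the cyclase gene gc2 were lower, with log2 fold changes of −1.03, −0.39 and −0.75. The call of gc2 was lost in 6 of 12 leave-one-out fits (adjusted p up to 0.084).

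Cone genes that were higher included gngt2a, the cone transducin gamma subunit, and pde6h, the inhibitory subunit of the cone phosphodiesterase. Levels of gngt2a were 1041, 1915 and 2974 at 0 h and 1986, 3855 and 5079 at 10 dpl, with overlap (log2 fold change 0.83 ± 0.12, adjusted p = 5.35e-05). For pde6h they were 17930, 20940 and 44240 at 0 h and 22820, 32600 and 52740 at 10 dpl, with wide overlap and a change near the threshold (log2 fold change 0.38 ± 0.12, adjusted p = 0.0462). Leaving out any single retina other than 0 h replicate 5 ended the call of pde6h (adjusted p = 0.0508 to 0.134), and without that replicate the change was 0.49 (adjusted p = 0.00184). Its call was lost as well with DESeq2 (adjusted p = 0.0594), upper quartile scaling (0.055), the fit over 48 libraries (0.221) and no experiment term (0.351). Transducin beta gnb3b did not differ by the test (0.04 ± 0.08, adjusted p = 0.819).

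Outside both lists, a gene named for size of change was ncaldb, a neurocalcin calcium sensor. It had 1826, 2269 and 3417 at 0 h and 431, 576 and 691 at 10 dpl (log2 fold change −2.12 ± 0.11, adjusted p = 1.55e-10). The gene impdh1a, for an enzyme of guanine nucleotide synthesis, had 624.9, 756 and 1364 at 0 h and 287, 345 and 374 at 10 dpl (log2 fold change −1.39 ± 0.13, adjusted p = 3.68e-07).

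Ribbon synapse and transmitter release genes had 7 of 25 tested members lower and none higher, with a median log2 fold change of −0.14 (7 lower and 1 higher without 0 h replicate 5). Complexins of ribbon synapses led. The gene cplx4b had 439.6, 550.2 and 685 at 0 h and 130.4, 235 and 295 at 10 dpl, and cplx4a had 2571, 2720 and 3208 at 0 h and 1529, 1770 and 2130 at 10 dpl, both without overlap (log2 fold changes −1.37 ± 0.16 and −0.69 ± 0.08, adjusted p = 6.06e-06 and 3.43e-06). Lower as well were cplx4c (−0.65 ± 0.12), the synaptotagmin gene syt5a (−0.47 ± 0.07) and the calcium channel subunit gene cacnb2b (−0.52 ± 0.11). The general release genes snap25a, snap25b and vamp2 had log2 fold changes of −0.14 ± 0.08, −0.04 ± 0.07 and −0.24 ± 0.08 and did not pass (adjusted p = 0.25, 0.765 and 0.0679).

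**Figure D3:**
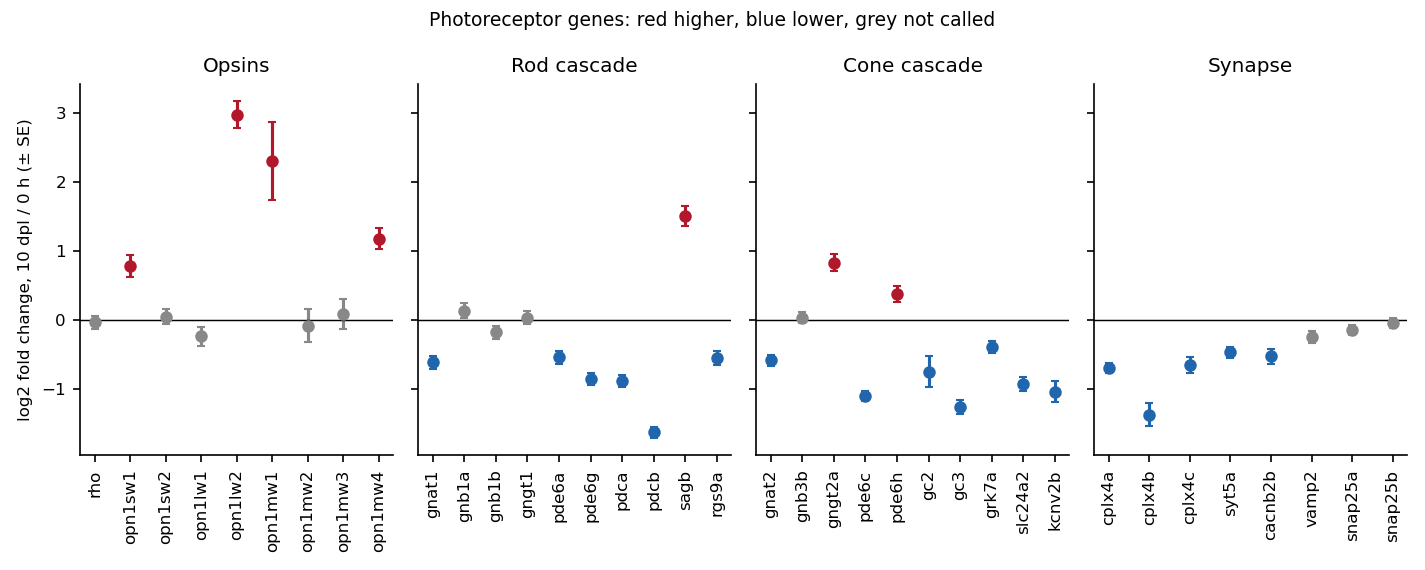
Log2 fold change at 10 dpl against 0 h with its SE for opsins, rod cascade, cone cascade and synapse genes (6 retinas a group), red where called higher, blue where called lower and grey where not called. In the rod and cone panels most called genes lie below 0, with sagb at 1.504, gngt2a at 0.83 and pde6h at 0.38 above it.

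Transcription factors of photoreceptor fate and maintenance split, with 5 of 21 higher and 4 lower (median 0.00). The largest rise of this list, 1.82 on the log2 scale, was that of xbp1. It is a stress factor gene rather than one of photoreceptor fate, and is counted among the endoplasmic reticulum stress genes as well. The rod factor gene nr2e3 had 23.7, 34.5 and 40.2 at 0 h and 65.1, 103 and 126 at 10 dpl, and prdm1a, which in mouse holds photoreceptor precursors from a bipolar fate, had 18.7, 24.1 and 36.1 at 0 h and 54.9, 75.2 and 111 at 10 dpl. Both were higher in every 10 dpl retina (log2 fold changes 1.54 ± 0.17 and 1.55 ± 0.20, adjusted p = 2.60e-06 and 1.15e-05). The neurogenic factor gene neurod1, active in photoreceptor precursors, was higher by 0.47 ± 0.09 (adjusted p = 8.45e-04). Lower were thrb, the thyroid hormone receptor required for red cones, with 377, 530.2 and 827 at 0 h and 248, 308 and 351 at 10 dpl (log2 fold change −0.90 ± 0.13, adjusted p = 8.94e-05), the cone factor gene six7 (−0.57 ± 0.12) and the homeobox gene rx1 (−0.58 ± 0.10). Levels of crx, the homeobox factor that drives photoreceptor genes, overlapped (log2 fold change −0.22 ± 0.08, adjusted p = 0.0973). Among the genes named for size of change, mef2ca, a MADS-box factor, had 104, 173 and 288 at 0 h and 25.1, 42.2 and 56.96 at 10 dpl, with a log2 fold change of −2.19 ± 0.23 (adjusted p = 1.71e-06), and its paralog mef2cb was lower as well (−0.61 ± 0.12).

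Nearly all called visual cycle and pigment epithelium genes were higher. Of 29 tested visual cycle genes 13 were higher and 1 was lower (median 0.55), and of 25 pigment epithelium and melanosome genes 12 were higher and none lower (median 0.64). The lists share 6 genes. Without 0 h replicate 5 the counts were 14 higher and 1 lower, and 11 higher and 2 lower. The summed level of the pigment epithelium list was 3754 to 7452 pseudo-counts at 0 h and 7480 to 12730 at 10 dpl. How much of the pigment epithelium came away with each retina is not given in the sources used here, and its part in these values was not tested.

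Melanosome genes separated the groups. The melanin enzyme gene tyrp1b had 103, 151 and 197 at 0 h and 599, 904 and 1351 at 10 dpl (log2 fold change 2.47 ± 0.16, adjusted p = 2.00e-09). The melanosome matrix gene pmela had 138, 167 and 187 at 0 h and 344, 398 and 426 at 10 dpl, and pmelb had 42.0, 78.0 and 94.6 at 0 h and 158, 207 and 314 at 10 dpl. All 10 dpl retinas exceeded all 0 h retinas for both (log2 fold changes 1.19 ± 0.11 and 1.46 ± 0.19). The pteridine synthesis gene gch2, low in both groups, was higher by 2.40 ± 0.28 on the log2 scale (adjusted p = 4.18e-06).

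Higher visual cycle genes included isomerase, dehydrogenase and retinoid-binding genes. The gene rgra, for an opsin that isomerises retinal, had 203, 274 and 335 at 0 h and 566, 667 and 1022 at 10 dpl, and the 11-cis retinol dehydrogenase gene rdh5 had 22.3, 43.6 and 82.5 at 0 h and 114, 147 and 218 at 10 dpl, without overlap (log2 fold changes 1.36 ± 0.11 and 1.72 ± 0.20, adjusted p = 8.83e-08 and 3.96e-06). The isomerase gene rpe65a had 409, 594 and 1083 at 0 h and 1010, 1317 and 2108 at 10 dpl, where the highest 0 h retina reached into the 10 dpl range (log2 fold change 0.97 ± 0.15, adjusted p = 8.53e-05). Retinaldehyde-binding protein genes rlbp1b and rlbp1a were both higher (1.04 ± 0.13 and 0.66 ± 0.10), as were the retinol-binding gene rbp5 (1.35 ± 0.12) and the retinol uptake receptor gene stra6 (0.55 ± 0.09). The single lower member was rdh8b, a retinol dehydrogenase of the photoreceptor outer segment in mammals, with 152, 172 and 217 at 0 h and 30.2, 48.4 and 56.4 at 10 dpl (log2 fold change −2.04 ± 0.17, adjusted p = 6.38e-08). It was lower in every 10 dpl retina.

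Of 69 tested progenitor and neurogenic genes, 17 were higher and 2 were lower at 10 dpl (median 0.27), and 21 higher and 3 lower without 0 h replicate 5. Genes of the cytoskeleton of young neurons showed the largest differences. The beta-tubulin gene tubb5 had 72.0, 90.7 and 113 at 0 h and 341, 636 and 1139 at 10 dpl, and the thymosin gene tmsb had 1.34, 7.83 and 9.36 at 0 h and 53.9, 83.7 and 144 at 10 dpl. Even the lowest 10 dpl retina lay above the highest 0 h retina (log2 fold changes 2.84 ± 0.22 and 3.70 ± 0.31, adjusted p = 2.86e-08 and 8.87e-08). The alpha-tubulin genes tuba1a, used as a marker of regenerating retina, and tuba1b were higher by 1.52 ± 0.10 and 2.22 ± 0.26, and the microtubule regulator gene stmn1a was higher by 2.26 ± 0.24.

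Growth-associated gap43, a protein of growing axons, had 52.3, 71.2 and 92.3 at 0 h and 202, 332 and 679.8 at 10 dpl (log2 fold change 2.29 ± 0.22, adjusted p = 4.87e-07). The factor gene sox11b, expressed in neuronal progenitors, had 44.3, 95.9 and 128 at 0 h and 245, 321 and 485 at 10 dpl (log2 fold change 1.83 ± 0.19, adjusted p = 8.91e-07). The zinc finger gene insm1a, which drives progenitors out of the cycle, had 2.69, 14.8 and 28.6 at 0 h and 58.3, 83.2 and 100.4 at 10 dpl (log2 fold change 2.25 ± 0.32, adjusted p = 4.48e-05). None of these overlapped between groups. Also past the 2-fold mark and without overlap was the membrane and actin linker gene marcksb (1.56 ± 0.15). Genes named for size of change, whatever their cell type, included the actin regulator gene pfn1 (2.23 ± 0.19) and the cytoplasmic actin gene actb1 (1.73 ± 0.10). The growth factor signalling inhibitor gene spry4 (1.83 ± 0.22), the stress gene gadd45ga (2.18 ± 0.39) and the coagulation factor gene f5 (1.84 ± 0.24) were named likewise. All of these were higher, and for the genes named for size of change an absence of overlap was a condition of naming.

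Levels of tubb5 and sox11b at 10 dpl lay between those of the neighbouring times. Mean levels of tubb5 were 2342 in the 72 hpl retinas, 1566 in those of 5 dpl, 687 in those of 10 dpl and 309 in those of 14 dpl, and the naïve mean was 171. The gene was lower at 10 dpl than at 5 dpl (log2 fold change −1.22, adjusted p = 0.0075) and higher than at 14 dpl (1.14, adjusted p = 0.00611). For sox11b the means were 1491, 785, 344 and 178 at the same times and 65.9 in naïve retinas, with both neighbouring differences past the test (adjusted p = 4.73e-05 and 3.14e-04).

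Chromatin and cell cycle genes were called mostly in the higher direction. Of 43 chromatin genes 16 were higher and none lower (median 0.21), of 50 DNA replication genes 9 were higher and 1 was lower (0.23), and of 58 mitosis genes 10 were higher and 1 was lower (0.27). The nucleosome-binding gene hmgn2 had 59.4, 102 and 134 at 0 h and 187, 292 and 396 at 10 dpl (log2 fold change 1.53 ± 0.18), and hmgb2b, h3f3a and hmga1a were higher by 1.06 ± 0.14, 1.002 ± 0.12 and 0.73 ± 0.10. All 4 separated the groups completely.

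Replication helicase genes were low in both groups. The gene mcm7 had 27.8, 37.9 and 74.9 at 0 h and 85.0, 129 and 135 at 10 dpl, and mcm2 had 1.35, 4.86 and 16.4 at 0 h and 26.96, 36.8 and 43.3 at 10 dpl, with no overlap (log2 fold changes 1.34 ± 0.23 and 2.25 ± 0.42, adjusted p = 4.36e-04 and 8.61e-04). The thymidylate synthase gene tyms, mcm3 and the maintenance methylation factor gene uhrf1 were higher by 2.55 ± 0.46, 2.22 ± 0.38 and 1.17 ± 0.24. In mitosis, topoisomerase top2a had 39.4, 62.3 and 82.8 at 0 h and 137, 157 and 193 at 10 dpl, and the proliferation marker mki67 had 52.4, 60.9 and 87.4 at 0 h and 93.6, 156 and 170.2 at 10 dpl. Both were clear of the 0 h range (log2 fold changes 1.33 ± 0.16 and 1.11 ± 0.16, adjusted p = 9.93e-06 and 4.41e-05), and the spindle gene nusap1 was higher by 1.47 ± 0.23. The cytokinesis gene ect2 went the other way, with 64.5, 186 and 288 at 0 h and 48.2, 68.4 and 129.9 at 10 dpl (log2 fold change −1.24 ± 0.29, adjusted p = 0.00763). Mean mki67 was 918 at 72 hpl, 367 at 5 dpl and 27.5 in naïve retinas. Without 0 h replicate 5 the counts were 11 higher and 5 lower for mitosis, 10 and 4 for replication and 20 and 4 for chromatin.

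**Figure D4:**
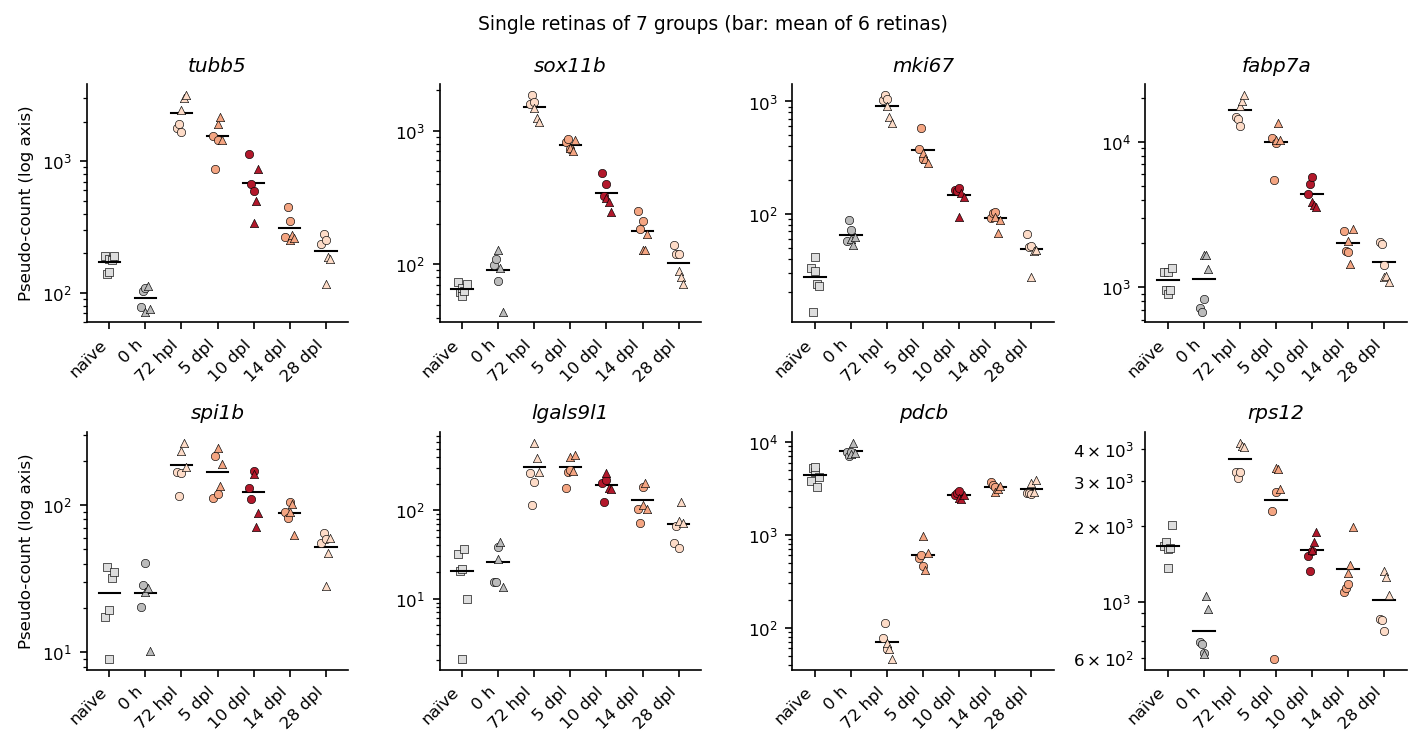
Pseudo-counts of 8 genes in single retinas of 7 groups on log axes (squares naïve, circles experiment 1, triangles experiment 2, bars the mean of 6 retinas). Among the 7 groups shown, the progenitor, cycle, glial and microglial genes are highest on average at 72 hpl and lie above 0 h at 10 dpl. Of the same groups, pdcb is lowest at 72 hpl, and its mean is 2679 at 10 dpl against 7955 at 0 h. Groups between 0 h and 72 hpl are not shown.

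Glial injury genes had 11 of 45 tested members higher and 2 lower (median 0.27), and genes of resting Müller glia had 7 of 36 higher and 1 lower (0.13). Without 0 h replicate 5 the counts were 12 higher and 2 lower for the injury genes and 8 higher and 4 lower for resting Müller glia. The brain fatty acid-binding gene fabp7a, of radial glia and progenitors, had 679.9, 1085 and 1664 at 0 h and 3571, 4126 and 5693 at 10 dpl. All 10 dpl retinas lay above all 0 h retinas (log2 fold change 1.96 ± 0.20, adjusted p = 7.91e-07). Intermediate filament genes vim and gfap mark reactive glia. The first had 139, 180.3 and 206 at 0 h and 355, 398 and 502 at 10 dpl. Levels of gfap were 15.6, 37.4 and 42.6 at 0 h and 64.97, 70.15 and 83.6 at 10 dpl, and neither gene overlapped between groups. Both were higher (log2 fold changes 1.12 ± 0.12 and 1.01 ± 0.22, adjusted p = 1.06e-06 and 0.00314). Further higher genes were the injury-induced factor genes atf3 (1.73 ± 0.20) and jun (1.301 ± 0.21), the annexin gene anxa2a (2.63 ± 0.36), the redox gene txn (1.24 ± 0.22) and apoeb (0.96 ± 0.11), an apolipoprotein of glia and phagocytes. Of these named genes, fabp7a and apoeb are counted in the resting Müller list, not among the injury genes. Higher members of the resting list also included ptgdsb.2 (1.43 ± 0.22), cahz (1.40 ± 0.26), rgra (1.36 ± 0.11) and rlbp1a (0.66 ± 0.10). Of the resting list, rgra and rlbp1a are counted among the visual cycle genes too, and apoeb among the microglial genes. Of the glutamine synthetases in that list, glula overlapped (0.11 ± 0.09, adjusted p = 0.506) and glulb was lower (−0.49 ± 0.13, adjusted p = 0.0142). The glutamate transporter gene slc1a2b did not differ by the test (0.04 ± 0.10, adjusted p = 0.842).

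Microglia and macrophage genes had 15 of 37 tested members higher and none lower, with a median log2 fold change of 0.91, and 17 higher and 2 lower without 0 h replicate 5. Their summed level was 2304 to 2913 pseudo-counts at 0 h and 3737 to 5138 at 10 dpl. The galectin gene lgals9l1 had 13.6, 21.6 and 43.5 at 0 h and 126, 191 and 266 at 10 dpl (log2 fold change 2.85 ± 0.25, adjusted p = 1.49e-07). The myeloid factor gene spi1b had 10.2, 26.4 and 40.3 at 0 h and 70.7, 119.6 and 170.4 at 10 dpl (log2 fold change 2.19 ± 0.25, adjusted p = 4.42e-06). No 0 h retina reached the 10 dpl range of either. The chemokine gene ccl34b.1 and the lysosomal genes hexb and ctsc were higher by 1.06 ± 0.17, 0.91 ± 0.15 and 1.48 ± 0.26.

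Antigen presentation and interferon genes had 11 of 27 members higher and none lower (median 0.44), and 13 higher without 0 h replicate 5. The proteasome activator gene psme1 had 4.44, 11.6 and 15.4 at 0 h and 21.9, 36.5 and 62.8 at 10 dpl, without overlap (log2 fold change 1.85 ± 0.29, adjusted p = 1.40e-04). Class I light chain b2m was higher by 1.57 ± 0.28, and cd74a, the class II invariant chain, by 0.93 ± 0.17, with overlapping groups in both. Genes of other leukocytes had 2 of 15 members higher and 1 lower (median −0.27), and 2 of 14 in each direction without 0 h replicate 5. Over all tested genes 6.77% were higher and 4.23% lower, and 8.85% and 7.13% without that replicate. With so few members, the counts of the other leukocytes were near these shares.

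Ribosomal protein genes were the most uniform group, with 77 of 78 higher and none lower (median 0.79), with and without 0 h replicate 5. Their summed level was 56770 to 88220 pseudo-counts at 0 h, where replicate 5 was highest, and 93870 to 127300 at 10 dpl. The small-subunit gene rps12 had 620.2, 687 and 1051 at 0 h and 1325, 1594 and 1886 at 10 dpl, and the stalk gene rplp1 had 1892, 2132 and 2999 at 0 h and 3368, 4182 and 4857 at 10 dpl. Neither overlapped (log2 fold changes 1.02 ± 0.10 and 0.84 ± 0.09, adjusted p = 9.54e-07 and 9.09e-07), and rps8a and rpl34 were higher by 1.02 ± 0.10 and 1.03 ± 0.10. Ribosome assembly genes, by contrast, had 2 of 61 higher and none lower (median 0.08), and 2 in each direction without 0 h replicate 5.

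Respiratory chain and ATP synthase genes had 58 of 84 higher and none lower (median 0.55), and 64 higher without 0 h replicate 5. The cytochrome c gene cycsb had 314, 360.4 and 528 at 0 h and 852, 918 and 999 at 10 dpl, and ndufv1, of complex I, had 119.3, 177 and 290.2 at 0 h and 291, 360.5 and 444 at 10 dpl. The 10 dpl retinas were all above the 0 h retinas (log2 fold changes 1.23 ± 0.11 and 0.94 ± 0.11, adjusted p = 1.30e-07 and 3.43e-06), as they were for cox6a1 of complex IV (1.02 ± 0.13). In experiment 2 alone, with 3 retinas a group, 7 respiratory chain and 36 ribosomal protein genes were called higher, with medians of 0.59 and 0.73. That fit called 165 of 10930 tested genes higher.

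Proteasome genes had 9 of 40 higher and none lower (median 0.31), and 17 higher without 0 h replicate 5. The core subunit genes psma4 and psmb2 were higher by 0.74 ± 0.11 and 0.66 ± 0.13. Of 41 endoplasmic reticulum stress and amino acid response genes 10 were higher and none lower (median 0.20). The stress factor gene xbp1 had 249, 348 and 628 at 0 h and 1063, 1415 and 1628 at 10 dpl, with no overlap (log2 fold change 1.82 ± 0.16, adjusted p = 1.40e-07). Chaperone genes calr3b and hspa5 of the same compartment were higher by 0.81 ± 0.12 and 0.66 ± 0.16. Heat shock genes had 7 of 31 higher and 3 lower (median 0.13), among them the mitochondrial chaperonins hspd1 (1.02 ± 0.11) and hspe1 (1.23 ± 0.13) and the cytosolic hsp90ab1 (0.70 ± 0.09). Antioxidant and iron genes had 11 of 46 higher and 1 lower (median 0.20). The selenoprotein gene sepw1 and the peroxiredoxin gene prdx2 were higher by 1.36 ± 0.13 and 1.001 ± 0.12, and metallothionein mt2, which binds zinc and copper, had 517, 596 and 1121 at 0 h and 246, 302 and 394 at 10 dpl and was lower (log2 fold change −1.18 ± 0.12, adjusted p = 5.99e-07).

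Clock genes differed in both directions. Period and cryptochrome genes, the repressors of the circadian clock, had 5 of 17 members lower and 3 higher (median −0.13), and clock outputs and light-induced genes had 7 of 29 lower and 3 higher (−0.17). A joint list of the activators and the Rev-erb/Ror loop had 1 of 16 in each direction (−0.16). Its lower member was nr1d1, a gene of the loop. Over all tested genes 4.23% were lower and 6.77% higher, and the joint list was near these shares. The balance of the outputs depended on 0 h replicate 5. Without it 7 outputs were lower and 7 higher (median −0.02). For the activator or loop genes 2 were then lower and 3 higher, and for the repressors 4 were lower and 3 higher. Over all tested genes 7.13% were lower and 8.85% higher without that replicate. In experiment 1 alone 9 outputs were lower and 10 higher (median 0.25), and in experiment 2 alone 6 were lower and none higher (−0.26). Over all tested genes, experiment 1 alone called 562 lower and 939 higher of 12007, and experiment 2 alone 124 lower and 165 higher of 10930. The time of day at harvest was not given in the sources used here, and it cannot be told apart from the group.

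Among repressors, per1b had 846, 966 and 1174 at 0 h and 233, 267 and 334 at 10 dpl, and cry2 had 389, 449.8 and 639.5 at 0 h and 139.9, 166 and 254 at 10 dpl. Both were lower in every 10 dpl retina (log2 fold changes −1.94 ± 0.12 and −1.49 ± 0.12, adjusted p = 1.12e-09 and 6.38e-08). The genes per1a and per3 were lower too (log2 fold changes −2.44 ± 0.42 and −1.05 ± 0.13). In the opposite direction, the light-induced repressor gene per2 had 43.6, 135 and 274 at 0 h and 160.2, 214 and 284 at 10 dpl. Levels of cry1ba, also light-induced, were 485, 715 and 1207 at 0 h and 1096, 1234 and 1395 at 10 dpl. Here the groups overlapped (log2 fold changes 0.80 ± 0.20 and 0.66 ± 0.13, adjusted p = 0.00938 and 0.00157). Within experiment 1 these differences were 1.37 and 1.05, and within experiment 2 they were 0.30 and 0.28 and did not pass (adjusted p = 0.6 and 0.516). The test of the difference between experiments did not pass for either (adjusted p = 0.525 and 0.424). The gene cry1bb, higher by 1.15 ± 0.30, showed the same pattern, with 2.31 in experiment 1 and 0.18 in experiment 2.

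Lower output and loop genes without overlap were ciarta, a clock-controlled repressor, with 90.5, 159.6 and 207 at 0 h and 25.1, 34.5 and 61.1 at 10 dpl (log2 fold change −2.05 ± 0.19, adjusted p = 2.61e-07), the salt-inducible kinase gene sik1 (−1.87 ± 0.17), the Rev-erb receptor gene nr1d1 (−1.56 ± 0.23), the PAR-domain factor gene dbpa (−1.16 ± 0.13) and the melatonin enzyme gene aanat1 (−1.07 ± 0.13). The repressor gene bhlhe41 (−2.11 ± 0.28) and hlfa (−0.85 ± 0.11) were lower with overlap. The activator arntl1a was higher, with 31.6, 64.2 and 86.3 at 0 h and 85.8, 112 and 129 at 10 dpl (log2 fold change 0.78 ± 0.18, adjusted p = 0.007).

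**Figure D5:**
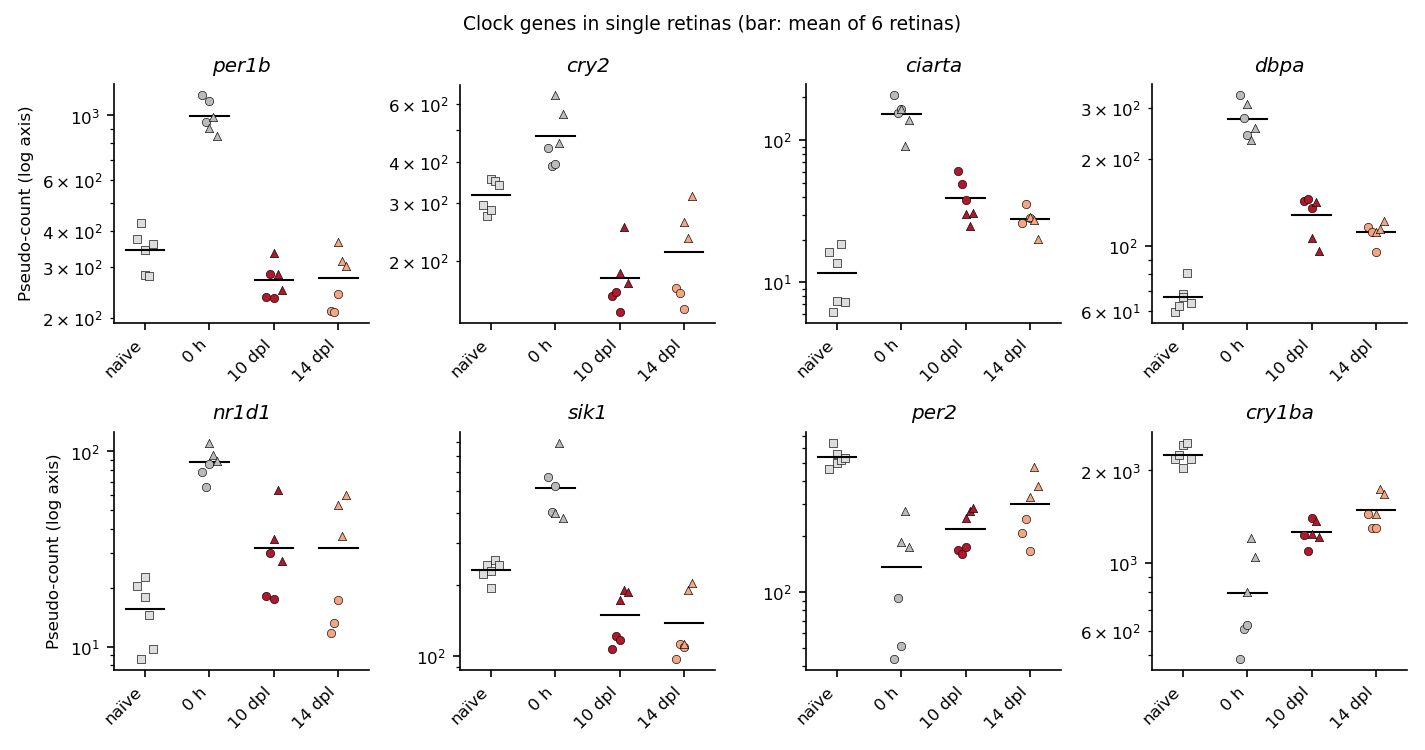
Pseudo-counts of 8 clock genes in single naïve, 0 h, 10 dpl and 14 dpl retinas on log axes (squares naïve, circles experiment 1, triangles experiment 2, bars the mean of 6 retinas). The 0 h retinas stand above the other 3 groups for per1b (mean 996, against 269.8 in the 10 dpl, 273 in the 14 dpl and 343 in the naïve retinas), whereas per2 and cry1ba are lowest on average at 0 h.

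Glycolysis genes had 6 of 42 members higher and 6 lower (median −0.21), and 9 higher and 6 lower without 0 h replicate 5. The regulator gene pfkfb3, which makes the activator of phosphofructokinase, had 599, 822 and 999 at 0 h and 203, 244 and 286 at 10 dpl, and the glucose transporter gene slc2a1a had 162, 245 and 316 at 0 h and 94.6, 111 and 164 at 10 dpl. The former did not overlap and the latter did slightly (log2 fold changes −1.81 ± 0.12 and −1.06 ± 0.12, adjusted p = 3.69e-09 and 2.55e-06). Enzyme genes eno3, ldhba and gapdhs were higher by 0.71 ± 0.10, 0.45 ± 0.08 and 0.54 ± 0.15, and the aldolase gene aldocb did not differ by the test (0.05 ± 0.13, adjusted p = 0.862).

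Among the remaining genes named for the size of their fall, slc25a25a, a mitochondrial carrier of ATP-magnesium, had 845, 934 and 2180 at 0 h and 195, 300.2 and 386 at 10 dpl (log2 fold change −2.04 ± 0.18, adjusted p = 1.78e-07). The endosomal sorting gene vps36 had 240.4, 397 and 662 at 0 h and 49.3, 81.9 and 89.6 at 10 dpl (log2 fold change −2.41 ± 0.16, adjusted p = 2.91e-09). The zinc finger repressor gene zbtb16a had 322, 610.5 and 1496 at 0 h and 152, 180.0 and 201 at 10 dpl (log2 fold change −1.92 ± 0.23, adjusted p = 8.63e-06). For these and the genes that follow, an absence of overlap between the groups was a condition of naming. Lower without overlap were also the oxygen-binding gene mb (−1.74 ± 0.25), the endoplasmic reticulum gene jagn1b (−1.45 ± 0.20), the kinase genes camkk1b (−1.45 ± 0.25) and slkb (−1.32 ± 0.09) and the serine protease gene htra1b (−1.33 ± 0.10).

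Ganglion cell genes had 11 of 29 members higher and 1 lower (median 0.22), and 10 higher and 1 lower without 0 h replicate 5. Several are genes of growing axons. The stathmin gene stmn2a had 215, 269.5 and 320.4 at 0 h and 336, 516 and 675 at 10 dpl, and the factor gene pou4f1, which marks ganglion cells, had 117, 172 and 185 at 0 h and 226, 279.6 and 315 at 10 dpl. Each was higher in every 10 dpl retina (log2 fold changes 0.82 ± 0.11 and 0.69 ± 0.12, adjusted p = 1.91e-05 and 6.52e-04). The peripherin gene prph, close to 0 at 0 h, had 0.358, 2.74 and 6.91 at 0 h and 7.78, 27.6 and 65.6 at 10 dpl (adjusted p = 5.60e-04), and the adhesion gene alcamb and the neuronal RNA-binding gene elavl4 were higher by 1.09 ± 0.20 and 0.48 ± 0.09. The pan-ganglion RNA-binding genes rbpms2a and rbpms2b did not differ by the test (0.22 ± 0.15 and −0.15 ± 0.12, adjusted p = 0.405 and 0.476). The lower member was inaa, an intermediate filament gene, with 1186, 1338 and 1724 at 0 h and 754, 879 and 987 at 10 dpl (log2 fold change −0.72 ± 0.09, adjusted p = 1.36e-05). Its mean was 86.3 at 72 hpl.

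The other inner retinal lists are read against 6.77% higher and 4.23% lower over all tested genes. Of 28 bipolar genes 1 was higher, cabp5b (0.76 ± 0.14), and 2 were lower, the homeobox gene vsx1 (−0.65 ± 0.09) and the calcium sensor gene cabp2a (−0.62 ± 0.14). Of 33 amacrine genes none was higher and 2 were lower, the neuropeptide genes npy (−1.07 ± 0.18) and penka (−0.58 ± 0.17, lost in 6 of 12 leave-one-out fits), while the GABA synthesis gene gad2 and the factor gene pax6a did not differ by the test (0.05 ± 0.11 and 0.14 ± 0.08, adjusted p = 0.809 and 0.281). Of 15 horizontal cell genes 2 were higher, among them prox1a (0.61 ± 0.16), and 1 was lower. Without 0 h replicate 5 the counts were 4 higher and 3 lower for bipolar, 1 and 2 for amacrine and 3 and 1 for horizontal cell genes.

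Lists for tissues that could come along with a dissected retina held at most 3 calls each with all 12 retinas, and are read against the same shares. Blood vessel genes had none of 28 higher and 2 lower, lens genes 2 of 13 higher and 1 lower, cornea and skin genes none of 19 higher and 3 lower, red blood cell genes 1 of 13 higher and none lower, muscle genes 2 of 17 higher and 1 lower, and extracellular matrix genes 3 of 48 higher and none lower. Some of these calls are shared with lists above. The red blood cell call is cahz, and slc2a1a, prox1a and eno3 are among the vessel, lens and muscle calls. Without 0 h replicate 5, matrix genes had 3 higher and 7 lower, cornea and skin genes 6 lower and blood vessel genes 4 lower, with none higher in the last 2 lists, and in experiment 1 alone matrix genes had 2 higher and 6 lower. Over all tested genes, 8.85% were higher and 7.13% lower without that replicate. Experiment 1 alone called 939 higher and 562 lower of 12007. The summed lens level was 302.3 to 2522 pseudo-counts at 0 h and 322.5 to 500.8 at 10 dpl. The 8 lists not described singly had 37 of 348 members higher and 21 lower.

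Against naïve retinas, which had lived in the light cycle with neither the days of darkness nor the lesion, 2232 of 10675 tested genes (20.9%) were higher and 2427 (22.7%) lower at 10 dpl by limma on log2 pseudo-counts. The naïve libraries were analysed here as pseudo-counts only, and a difference between preparations cannot be told apart from the group. Directions against naïve differed from those against 0 h for several groups, which are given side by side. Rod genes had 17 of 23 lower and 3 higher against naïve, and rho was lower than in naïve retinas (mean 93450 ± 6686 naïve, 52730 ± 3476 at 10 dpl, SD, n = 6, log2 fold change −0.83, adjusted p = 2.87e-05). The arrestin sagb, higher than at 0 h, was lower than in naïve retinas (−0.77, adjusted p = 2.32e-04), as was pde6h (−1.91). Conversely, cplx4b, lower than at 0 h, was higher than in naïve retinas (1.097, adjusted p = 4.85e-04).

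Respiratory chain genes had 3 of 84 higher and 62 lower against naïve, and ribosomal protein genes 4 of 78 higher and 19 lower. Over all tested genes 20.9% were higher and 22.7% lower against naïve. The share of ribosomal protein genes that were lower was near the latter (median log2 fold change −0.13). Pigment epithelium genes had 2 of 22 higher and 1 lower, and visual cycle genes 2 of 28 higher and 10 lower. Microglial genes had 19 of 34 higher and 3 lower, and mitosis genes 31 of 52 higher and 3 lower. Red opsin opn1lw2 was higher than in naïve retinas as well (1.80, adjusted p = 0.0163), while opn1lw1 was lower (−1.62, adjusted p = 8.38e-08). Of the clock repressors, 2 of 16 were higher and 10 lower, among them per1b (−0.34) and per2 (−1.32).

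Against 5 dpl, 401 of 11533 genes (3.48%) were higher and 384 (3.33%) lower at 10 dpl, 6.81% in all, by edgeR's quasi-likelihood test. Of the rod genes 22 of 23 were higher and none lower, of the cone genes 19 of 24 were higher and 1 was lower, and of the opsins 8 of 9 were higher. Ultraviolet opsin opn1sw1 was at 1142 ± 555 at 5 dpl and 17110 ± 2345 at 10 dpl (SD, n = 6, log2 fold change 3.91, adjusted p = 3.17e-07), and rho at 9459 ± 3673 and 52730 ± 3476 (2.497, adjusted p = 3.77e-06). Progenitor genes had 27 lower and 1 higher, and mitosis genes 25 lower and none higher. The 5 dpl replicate 2 library held 228611 counts, against 2042447 to 2958035 in the other 5. Without it, 775 genes were higher and 943 lower. Rod genes then had 22 higher and none lower, cone genes 20 and 1, opsins 8 and none, progenitor genes 2 and 34 and mitosis genes none and 33. Of the 45 lists, ribosomal protein genes moved most, from none higher and 14 lower with that library to 1 higher and 77 lower of 78 without it.

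Against 14 dpl, 22 of 11397 genes (0.193%) were higher and 14 (0.123%) lower at 10 dpl, with 1069 at an unadjusted p under 0.05. Genes still higher at 10 dpl included fabp7a (1.12, adjusted p = 5.06e-05), tubb5, sox11b, gap43 (0.93), insm1a (1.04), top2a (0.96) and nr2e3 (0.72). Genes lower at 10 dpl included gnat1 (−0.51, adjusted p = 0.00968), pde6h (−0.49), gngt1 (−0.41), stra6 (−0.41) and mb (−1.08). None of the 9 opsins differed by the test.

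The change from 0 h to 10 dpl differed between the experiments for 4 of 11536 genes (0.0347%), with 751 at an unadjusted p under 0.05. In all 4 the change was the lower one in experiment 2. Glial fabp7a was higher by 2.71 in experiment 1 and by 1.21 in experiment 2 (adjusted p of the difference = 0.00151). The cryptochrome cry1aa differed by 0.73 and −0.38 (adjusted p = 0.0119), the phospholipase gene abhd3 by 0.25 and −1.44 (adjusted p = 0.00662), and the factor gene klf13 by 0.79 and −1.105 (adjusted p = 0.033). For cry1aa, abhd3 and klf13 the directions were opposite. Both values passed within their experiment for klf13 (adjusted p = 3.58e-05 and 0.0421), whereas cry1aa did not pass in experiment 2 (0.282) nor abhd3 in experiment 1 (0.257). The joint value of klf13, −0.16 ± 0.26, did not pass. Experiment 1 alone called 939 genes higher and 562 lower of 12007 tested, and experiment 2 alone called 165 higher and 124 lower of 10930.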

How the data were processed

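The authors aligned reads of 3′ mRNA libraries with STAR to zebrafish build dR10 and tabulated them per gene with HTSeq, with versions not given in the sources used here. They deposited raw read counts for 48 libraries and, for all 54, edgeR pseudo-counts, a depth-adjusted signal that the authors scaled to a common library size and that was used here for levels, sums and shares. The authors' fold changes, p-values and summary columns in the same files were not used. Replicates were single retinas, grouped by the sample labels, and the experiment of each replicate was taken from the naming of the read files. No replicate pair agreed within counting noise. The 2-group comparisons with counts used edgeR 4.0.16 (R 4.3.3), quasi-likelihood F test, TMM scaling, group plus experiment as terms, genes with at least 5 counts in at least 6 of the 12 libraries, Benjamini-Hochberg adjustment over all tested genes and a threshold of 0.05. The SE of an edgeR log2 fold change was derived from that test, as the absolute log2 fold change divided by the square root of F. The naïve comparison used limma 3.58.1 on log2(pseudo-count + 1) values, so that its fold changes understate those of low genes; the log2 step was applied here to the deposited signal. Alternatives were other scalings, DESeq2 1.42.0, limma, filters, the block, single experiments and leaving out each replicate. The steps were tested on simulated data. Of 15245 genes in the count tables, 493 had no read in the 12 libraries. Among the pseudo-counts, 12 gene names had turned into dates and were left out.

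The comparison, the gene lists and the tests were chosen with earlier results of these data known. List counts within one experiment or without 0 h replicate 5 or 5 dpl replicate 2 were added after seeing the data. Lists can share members, so that their counts are not independent. Examples are hspa5 (endoplasmic reticulum stress and heat shock), cd74a (microglia and antigen presentation) and hmgb2b (chromatin and mitosis). Others are prdm1a and neurod1 (photoreceptor factors and progenitors). Named genes were the 20 largest changes in each direction among called genes with a mean of at least 50 pseudo-counts in the higher group and no overlap, leaving out unannotated symbols (3 higher and 4 lower), all 9 opsins, and up to 8 members per list by p or 4 by level. Genes past the 14 dpl and experiment tests were named after their values were seen.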

Additional observations from a re-analysis of the deposited data

Results flagged for a closer look

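In 30 of 418 groups of 6 retinas examined (7.18%), over the named genes and list sums at 0 h and 10 dpl, the highest or lowest retina stood apart from the other 5 by Dixon's criterion, which chance meets in about 1 in 20 groups. Most of these were 0 h replicate 5, which was highest for the cone opsins opn1sw1 (17490 pseudo-counts against a group median of 8843), opn1mw2 (6259 against 2331), opn1lw1 (6715 against 4401) and opn1lw2 (713 against 340). It was highest too for pdcb (9875), sagb (1908), crx (2642), xbp1 (628), tuba1b (67.0), ctsc (42.1), hspd1 (247), sepw1 (134) and mt2 (1121), and for the summed levels of visual opsins (112800), cone genes (149900), clock activators with the Rev-erb/Ror loop (2085) and clock outputs (11450). Its total over all genes was also the highest at 0 h (2258728 pseudo-counts), and the part of that total in these values was not tested.

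Other 0 h retinas that stood apart were replicate 3 for nusap1 (36.1, highest), replicate 4 for anxa2a (11.3, highest), replicate 6 for pou4f1 (117, lowest) and replicate 2 for the lens sum (2522 against a median of 321.4). Among the 10 dpl retinas, replicate 6 was highest for opn1mw1 (690.3), tuba1b (276), ctsc (93.3), cox6a1 (1369) and aldocb (7132) and lowest for vps36 (49.3), and replicate 4 was highest for rx1 (1064) and lowest for mki67 (93.6) and for the mitosis sum (4475).

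The change at 10 dpl differed between the experiments for 4 genes by the interaction test of edgeR. In experiment 2 minus experiment 1, on the log2 scale, the difference was −1.65 for abhd3 (adjusted p = 0.00662), −1.07 for cry1aa (0.0119), −1.46 for fabp7a (0.00151) and −1.85 for klf13 (0.033).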

How the results depend on the processing

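The count of genes that differed between 10 dpl and 0 h was 1269, and 1258 to 1573 under other scalings, tests and filters. It was 872 without the experiment term and 289 in experiment 2 alone, which has 3 retinas a group. Leaving out single retinas gave 1016 to 1827, the highest without 0 h replicate 5. Over 3784 pairs of a named gene and 1 of 22 settings, 3664 kept their side of the threshold. Some of these were uncalled in both fits and changed sign, such as cry1aa in experiment 2 alone. In 107 pairs the call was lost, 57 of them in experiment 2 alone. Besides pde6h, leave-one-out fits lost the calls of gc2 (without 0 h replicate 1, 3 or 4 or 10 dpl replicate 1, 3 or 5) and penka (0 h 1, 2 or 5, 10 dpl 1, 2 or 4). They also lost cry1bb (0 h 1, 2 or 3, adjusted p = 0.0604 to 0.0651) and gapdhs (0 h 1 or 3, 10 dpl 6, 0.0569 to 0.0648). Further calls were lost in other settings. The fit over all 48 libraries also lost grk7a, six7 and glulb. Without the experiment term pde6a, gngt2a, stra6, per2 and ldhba were lost as well. Experiment 1 alone lost cabp2a and prox1a. Among pairs with a call in either fit, 1 direction was reversed, that of klf13 in experiment 1 alone (0.79). The replicate numbers did not pair the retinas (r of −0.007 to 0.109 once experiment means were removed), and the replicate block gave 1319 calls against 0 h and changed the call of no named gene. It gave 4534 against naïve, 457 against 5 dpl and 50 against 14 dpl. Against naïve, 4659 genes were called, 3931 to 4580 in leave-one-out fits. The 785 genes against 5 dpl became 1327 with DESeq2, 468 without the experiment term, 457 with the block and 1718 without 5 dpl replicate 2. The 36 against 14 dpl became 117 with DESeq2, 3 without the experiment term and 69 with no filter. The 4 interaction genes became 31 with DESeq2 and 12 with no filter. The causes of these shifts were not tested. In leave-one-out tests the opn1lw2 share difference was 33.5 to 37.4 points and that of opn1mw2 was −14.3 to −5.83 points, with 1 of these passing (adjusted p = 0.024). Genes near the count minimum are limited by depth.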

Other observations

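At 28 dpl, which enters no test here, the red opsin paralogs were at 3367 ± 992 (opn1lw2) and 8391 ± 2150 (opn1lw1) pseudo-counts (SD, n = 6), against 2979 ± 631 and 4078 ± 855 at 10 dpl and 1479 ± 1388 and 12440 ± 1736 in naïve retinas. The rod factor gene nr2e3, at 101 ± 21.3 at 10 dpl and 33.4 ± 6.03 at 0 h, was at 16.6 ± 7.48 at 28 dpl. The phosducin gene pdcb was at 3148 ± 503, against 2679 ± 199 at 10 dpl, and the microglial galectin gene lgals9l1 at 69.5 ± 30.8, against 194 ± 47.3 at 10 dpl and 20.3 ± 12.9 in naïve retinas.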
